A study of Rattus norvegicus with 4 samples.

Results

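The comparison described here set rat hippocampal neural progenitor cells kept with KHS101 at 5 uM against cells kept with the solvent dimethyl sulfoxide (DMSO). Its members are all named genes of the array: each is represented by its probe set of highest mean on the 4 arrays of the series, and a gene's difference is its log2 value with KHS101 at 5 uM minus its log2 value in DMSO. There were 14217 named genes, the same number as in the whole series. Of these, 8543 were measured, meaning that at least 1 of the 2 arrays lay above a floor of log2 = 5, and 5674 were not above the floor on either array. Values under the floor were raised to it, so where 1 of the 2 levels is the floor the difference is a bound and is written as "at least".

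The cells came from Fisher 344 rats, were of early passage and were held for 4 days in N2 medium. The 4 groups received KHS101 at 5 uM, the same compound at 1.7 uM, 1 uM of retinoic acid together with forskolin, which activates adenylyl cyclase, or DMSO, which the protocol gives at 0.1%. No label gives a concentration for forskolin, and the series design names retinoic acid by itself as the positive control. Each group is 1 array, and nothing in the labels tells whether the cultures were separate. There is therefore no replicate, no test and no error between samples, the number of arrays limits the precision, and every difference below is a value of these arrays. The design text asks how the profile of KHS101-treated progenitors compares with the negative and positive controls.

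Neural progenitors divide, carry the transcription factor Sox2 and can form neurons, astrocytes or oligodendrocytes. KHS101 was described by its developers as a small molecule that promotes neuronal differentiation and binds TACC3, a protein of the mitotic spindle that also interacts with the ARNT family of transcription factors. The main gene groups below belong to well known programmes. In the integrated stress response, kinases phosphorylate the initiation factor eIF2, general translation slows, and the transcription factor ATF4 accumulates and switches on genes for amino acid uptake, amino acid synthesis and tRNA charging. NRF2, kept low by KEAP1, drives antioxidant and heme-degrading enzymes when cells meet electrophiles. E2F factors, released from retinoblastoma proteins when cyclin-dependent kinases are active, drive the genes of DNA replication.

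The labelled cell type was set against its markers. Of 7 progenitor markers named on the array, 5 lay above the floor on both arrays, Sox2, Sox3, Nes, Vim and Fabp7, and 2 (Sox1 and Prom1) were at the floor. Olig1, Olig2, Sox10, Pdgfra and Mbp of the oligodendrocyte lineage were also above the floor on both arrays, and Mog and Cspg4 were at it. Of 6 astrocyte markers only S100b was above it, with Gfap, Aqp4, Aldh1l1, Gja1 and Slc1a2 at the floor. Of 8 neuronal markers, Map2, Tubb3, Elavl3 and Elavl4 were above the floor on both arrays and Syn1 in DMSO alone, while Dcx, Rbfox3 and Snap25 were at the floor on both. All 7 microglial, 6 endothelial or mural and 3 ependymal markers named on the array were at the floor on both arrays, and of 6 fibroblast markers only Postn was above it, with KHS101. In bulk RNA, fewer cells of a type and less RNA per cell cannot be told apart. Control probe sets for the 3' end of actin exceeded those for its 5' end by 1.54 with KHS101 at 5 uM and by 1.26 in DMSO; for hexokinase the values were 0.96 and 0.69, and for GAPDH -0.11 and -0.16. On the 1.7 uM and the retinoic acid arrays the values were 1.40 and 1.37 for actin and 0.80 and 0.66 for hexokinase. This sign of RNA quality differed between the arrays. With 1 array per group, treatment and array cannot be told apart, and its part in the differences was not tested.

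With KHS101 at 5 uM, 526 of the 8543 measured genes (6.16%) were at least 2-fold higher than in DMSO and 692 (8.10%) were at least 2-fold lower. These shares are the background against which each gene list is read below, together with the median difference of all measured genes, which was 0.00. At 3-fold there were 218 higher (2.55%) and 300 lower genes (3.51%). With bounds taken at their minimum, higher genes reached larger differences than lower genes: 46 were at least 8-fold higher and 25 at least 8-fold lower, 16 and 1 passed 16-fold, and 8 and 0 passed 32-fold. The 8 genes higher by 32-fold or more were Trib3, Cth, Ifi27l2b, Hmox1, Srxn1, Klf4, Dhrs3 and Nupr1, and the single gene lower by 16-fold or more was Armh4. The median called gene was 2.73-fold higher or 2.78-fold lower. Bounds made up 77 of the higher and 48 of the lower genes. Near the threshold, 54 higher genes lay between 2-fold and 2.1-fold and 84 uncalled genes between 1.9-fold and 2-fold, and for lower genes these numbers were 71 and 86. Calls were more frequent among weakly expressed genes: 11.0% of genes with a mean level of 5 to 7 were higher and 11.5% lower, against 2.34% and 1.30% of genes above 13.

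**Figure D1:**
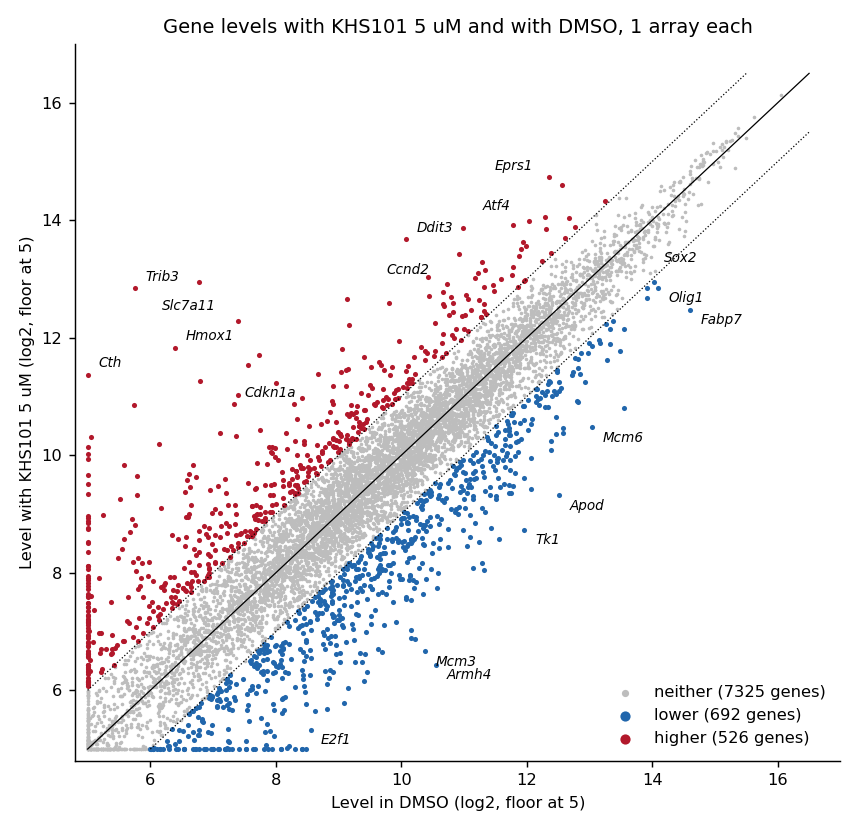
Each point is 1 of the 8543 measured genes, with its level in DMSO on the horizontal axis and with KHS101 at 5 uM on the vertical axis (log2, values below 5 raised to 5); the solid line marks equality and the dotted lines a 2-fold difference. The 526 higher genes, in red, reach farther from the line than the 692 lower genes, in blue, with Trib3 at 12.84 against 5.75.

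**Figure D2:**
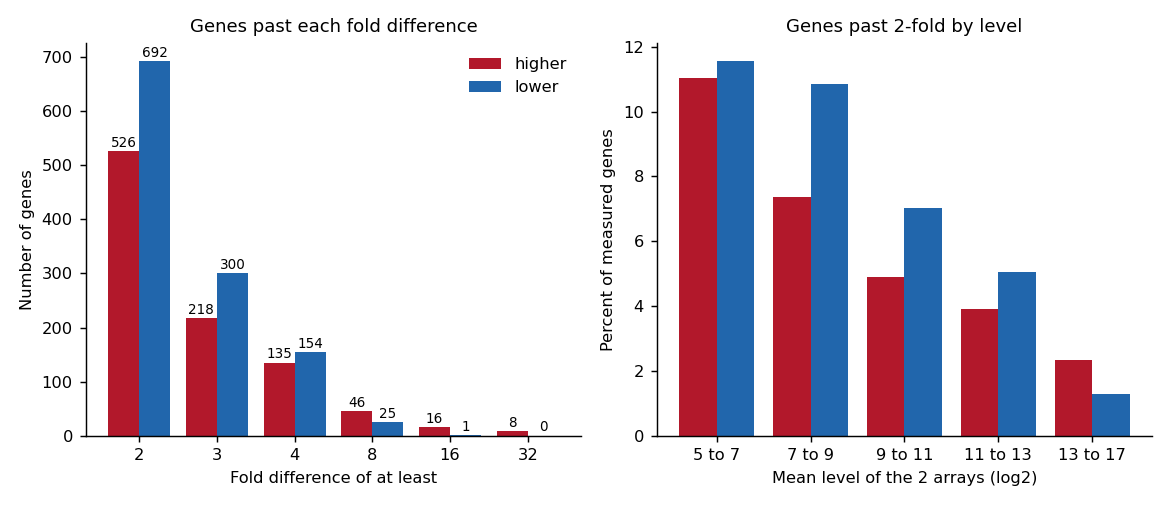
The left panel gives the number of genes past each fold difference on a linear axis and the right panel the percent of measured genes past 2-fold in 5 bins of the mean of both levels. Lower genes outnumber higher ones at 2-fold (692 and 526) and higher ones outnumber lower ones from 8-fold on (46 and 25).

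Further probe sets of the same gene gave the sole repeat measurement, and they share the RNA and the array. Among the 132 higher genes that had other measured probe sets, all 171 of these lay on the same side and 124 passed 2-fold. Among the 120 lower genes, all 155 lay on the same side and 110 passed it. Over all measured genes the other probe sets differed from the chosen one by a median of 0.19, and for 90% of them by less than 0.60. The calls of some genes named below end under another setting. With a floor of log2 = 6 this holds for Adm, Bhlhe40, Cx3cl1, Cxcl12, Elavl2, Myl9, Pdk2 and Postn, and with the mean of all probe sets for Cars1, Stard4 and Vcl. With the probe set of smallest difference it holds for Mapt and Nfe2l1. Other such genes are given with the value that ends the call.

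Stress transcription factors and regulators had the highest median of the lists with 8 or more measured members. Of 22 measured, 14 were higher and 1 was lower, with a median difference of 2.01. Atf4 itself, whose protein binds the target genes, had levels of 12.04 in DMSO, 11.73 with retinoic acid plus forskolin, 13.77 at 1.7 uM and 13.99 at 5 uM of KHS101. Both KHS101 arrays were high and the other arrays low, and Atf4 was 3.87-fold higher at 5 uM. Ddit3 encodes CHOP, a factor induced by ATF4, and its levels were 10.08 in DMSO, 10.46 with retinoic acid plus forskolin, 12.59 at 1.7 uM and 13.68 at 5 uM of KHS101. Here the 5 uM array stood above the 1.7 uM array, and Ddit3 was 12.1-fold higher than in DMSO. Trib3, a pseudokinase that ATF4 and CHOP switch on, had levels of 5.75 in DMSO, 6.48 with retinoic acid plus forskolin, 11.84 at 1.7 uM and 12.84 at 5 uM of KHS101. It was 136-fold higher, the largest difference when genes at the floor on either array are set aside, and its other probe sets gave log2 differences of 6.41 and 7.31. Atf5, a relative of Atf4 with mitochondrial targets, stood at 9.14 in DMSO, 9.22 with retinoic acid plus forskolin, 12.26 at 1.7 uM and 12.66 at 5 uM of KHS101, which made it 11.5-fold higher. Ppp1r15a, the phosphatase subunit that undoes eIF2 phosphorylation, had levels of 5.58 in DMSO, 5.90 with retinoic acid plus forskolin, 7.88 at 1.7 uM and 9.83 at 5 uM of KHS101 and was 19.0-fold higher.

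Further regulators were also highest on the KHS101 arrays. Nupr1, which encodes a small protein that joins chromatin under stress, was at least 32.6-fold higher, and Atf3, an ATF/CREB repressor, was at least 22.8-fold higher; both were at the floor in DMSO and with retinoic acid and forskolin. Cebpb, a partner of ATF4, was 14.5-fold higher, and Cebpg, another partner, 3.30-fold higher. Sesn2 and Ddit4, which restrain the growth kinase mTORC1, were 9.39-fold higher and 4.29-fold higher. Jdp2, a repressor of the AP-1 family, was at least 4.17-fold higher, Nfe2l1, a regulator of proteasome genes, 2.91-fold higher, and Atf6, a transducer of endoplasmic reticulum stress, 4.95-fold higher. The kinases that phosphorylate eIF2 were near equality: Eif2ak1 differed by -0.13, Eif2ak2 by -0.28, Eif2ak3 by 0.20 and Eif2ak4 by 0.36. Xbp1 differed by 0.62. Trib2, a paralogue of Trib3, was the lower member, at 11.04 against 12.46 and 2.67-fold lower.

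**Figure D3:**
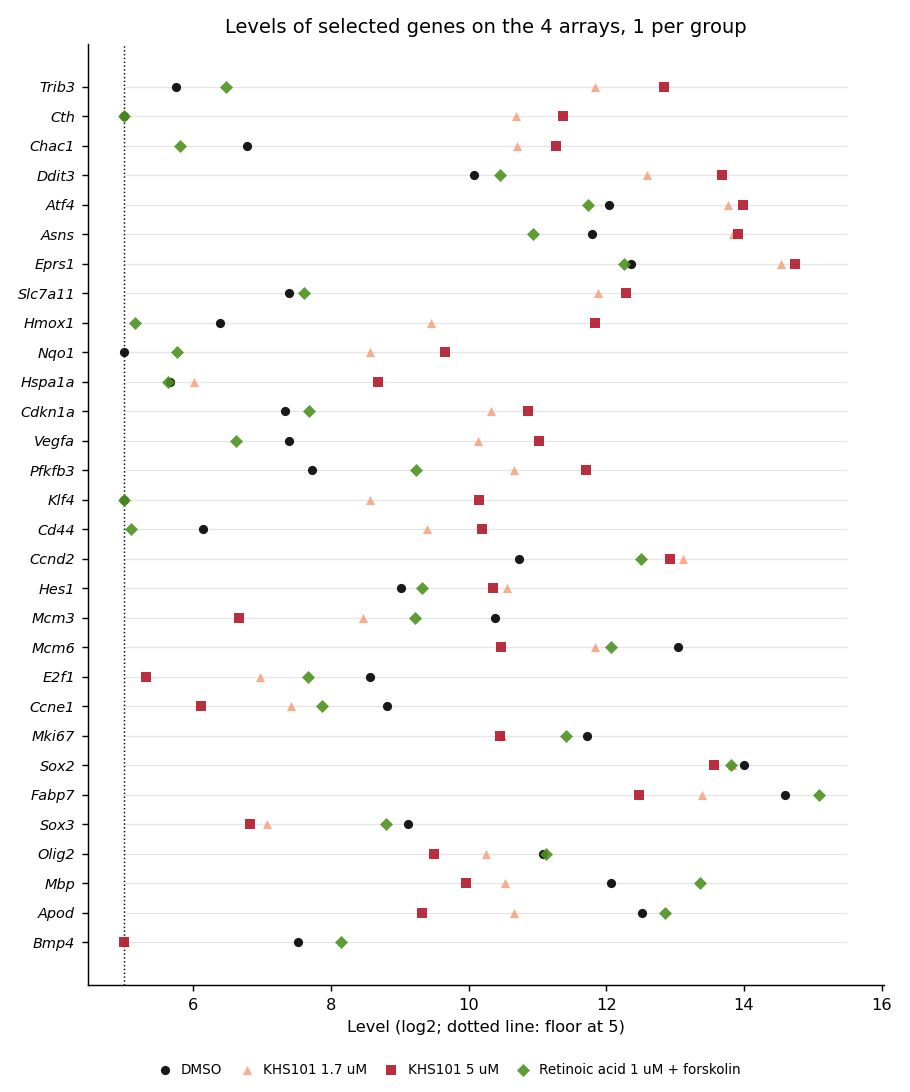
Levels (log2, floor at 5) of 30 genes on the 4 arrays, 1 array per group, with a symbol for each group. Stress genes at the top lie far right for both KHS101 arrays, with Trib3 at 12.84 and 11.84 against 5.75 in DMSO, while Mcm3 lies far left, at 6.67 and 8.47 against 10.38.

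The promoters of the higher genes were searched for the ATF4 composite element, written TGATGNAAN, on both strands in the 250 bases before the start of transcription in RefSeq (assembly GRCr8). Promoters were in the table for 7249 of the 8543 measured genes. The element was found in 21 of 423 promoters of higher genes (4.96%), 3 of 574 of lower genes (0.523%) and 89 of 6252 of the others (1.42%); it was in 3.25% of the 27457 genes of the whole table. Its presence is a description of the sequence and not of binding. The promoter of Trib3, shown whole because Trib3 had the largest difference between levels above the floor, covers chr3:161275534-161275783 on the minus strand, and the match, in capitals, begins 22 bases before the start and reads as the element on the other strand. The shorter stretches below hold the match in capitals with up to 12 bases on either side, for 6 further higher genes: a chromatin factor (Nupr1, chr1:190645937-190645969, plus strand), an enzyme that degrades glutathione (Chac1, chr3:126795951-126795983, minus), 2 amino acid transporters (Slc38a1, chr7:129681523-129681555, minus; Slc1a4, chr14:98761778-98761810, plus), a transcription factor (Jdp2, chr6:110993563-110993590, plus) and an endoplasmic reticulum protein (Herpud1, chr19:10614872-10614904, plus).
Trib3: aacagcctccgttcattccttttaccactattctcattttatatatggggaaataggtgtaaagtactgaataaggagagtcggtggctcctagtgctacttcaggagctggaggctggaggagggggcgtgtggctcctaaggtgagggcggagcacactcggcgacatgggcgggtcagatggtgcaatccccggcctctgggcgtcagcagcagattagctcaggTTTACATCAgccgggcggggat
Nupr1: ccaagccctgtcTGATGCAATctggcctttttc
Chac1: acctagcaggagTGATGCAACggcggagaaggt
Slc38a1: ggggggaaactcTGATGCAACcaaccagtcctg
Slc1a4: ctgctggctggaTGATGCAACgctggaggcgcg
Jdp2: tatagccggggcTGATGCAACccgtccc
Herpud1: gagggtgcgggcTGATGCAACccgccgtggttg
Among the lists, 4 of 19 promoters of stress regulators, 5 of 18 of cytosolic aminoacyl-tRNA synthetases and 3 of 13 of amino acid transporters held the element.

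**Figure D4:**
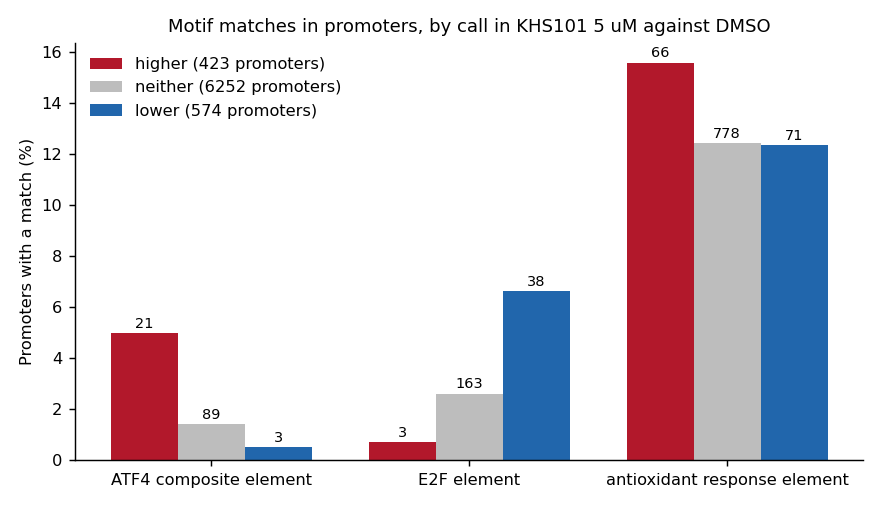
Percent of promoters with each motif among genes higher, neither and lower with KHS101 at 5 uM, with the number of promoters above each bar (linear axis from 0). The ATF4 element was in 4.96% of promoters of higher genes and the E2F element in 6.62% of promoters of lower genes, while the antioxidant response element was in 15.6%, 12.4% and 12.4% of higher, other and lower genes.

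Genes that load amino acids onto tRNA were higher in large part. Of 20 measured cytosolic aminoacyl-tRNA synthetases, 11 were higher and 0 lower, and all 20 differences were above 0 (median 1.02). Eprs1, which charges glutamate and proline tRNAs, had levels of 12.35 in DMSO, 12.26 with retinoic acid plus forskolin, 14.53 at 1.7 uM and 14.74 at 5 uM of KHS101. Only the KHS101 arrays were high, and Eprs1 was 5.22-fold higher. Wars1, for tryptophan, was 3.64-fold higher, Sars1, for serine, 3.23-fold, Nars1, for asparagine, 2.92-fold, Yars1, for tyrosine, 2.68-fold and Cars1, for cysteine, 2.65-fold. Kars1 and Qars1, for lysine and glutamine, differed by 0.08 and 0.14. For Lars1 another probe set gave a log2 difference of 0.57 beside the 1.55 of the chosen one. Among the mitochondrial synthetases 1 of 10 was higher (Fars2, 2.17-fold), with a median of 0.16, and the difference between the groups of enzymes was not tested. Some mitochondrial members had low signal. Aars2 lay at the floor with KHS101 against 5.47 in DMSO, and Cars2 lay near it, at 5.87 against 5.21.

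Amino acid transporters and enzymes of amino acid synthesis were higher on the same array. Of 17 measured transporters, 8 were higher and 1 was lower (median 0.82). Slc7a11, the exchanger that brings in cystine for glutathione, had levels of 7.40 in DMSO, 7.61 with retinoic acid plus forskolin, 11.88 at 1.7 uM and 12.28 at 5 uM of KHS101. It was 29.5-fold higher with KHS101 at 5 uM, and the retinoic acid array lay close to DMSO. Slc1a5 and Slc1a4, which carry neutral amino acids, were 6.42-fold higher and 4.27-fold higher. Slc7a5 and Slc3a2, the light and heavy chains of a leucine transporter, were 3.42-fold higher and 3.39-fold higher. The glycine transporter Slc6a9 was 3.38-fold higher, and the glutamine transporter Slc38a1 4.39-fold higher, though another of its probe sets gave 0.47. The glutamate transporters Slc1a1 and Slc1a3 differed by -0.92 and -0.72, and Slc38a3 was 2.21-fold lower.

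Among enzymes for serine, folate-bound carbon units, asparagine and proline, 9 of 17 were higher and 1 was lower (median 1.05). Asns, the asparagine synthetase that is a classical ATF4 target, had levels of 11.79 in DMSO, 10.94 with retinoic acid plus forskolin, 13.83 at 1.7 uM and 13.92 at 5 uM of KHS101, and was 4.38-fold higher. In this gene the KHS101 arrays lay close together and the retinoic acid array was the lowest. Aldh18a1, which starts proline synthesis, was 3.58-fold higher. The mitochondrial folate enzymes Shmt2, Mthfd2 and Mthfd1l were 2.69-fold, 2.57-fold and 2.19-fold higher, whereas their cytosolic counterparts Shmt1 and Mthfd1 were 2.09-fold lower and differed by -0.42. Phgdh, the enzyme that commits glucose carbon to serine, differed by 1.00, just under the threshold, and Psat1 by 0.38. Bcat1 and Bcat2, aminotransferases of branched-chain amino acids, were 2.47-fold and 2.80-fold higher.

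Cysteine supply stood out by size and less by count. Of 17 measured genes of cysteine supply and glutathione turnover, 4 were higher and 1 was lower (median 0.30). Cth makes cysteine from cystathionine, and its levels were the floor in DMSO, the floor with retinoic acid plus forskolin, 10.70 at 1.7 uM and 11.37 at 5 uM of KHS101. It was at least 82.8-fold higher, and both arrays without KHS101 were at the floor. Chac1 cleaves glutathione, and its levels were 6.78 in DMSO, 5.81 with retinoic acid plus forskolin, 10.71 at 1.7 uM and 11.27 at 5 uM of KHS101, so that it was 22.4-fold higher. Mgst1, a membrane glutathione transferase, was at least 14.7-fold higher and Gclc, the catalytic subunit of the enzyme that commits cysteine to glutathione, 2.11-fold higher. Its partner subunit Gclm differed by -0.18, Gss by -0.26 and Gsr by 0.30. Mgst3 was 3.06-fold lower.

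NRF2-linked genes were divided between a few very large differences and many small ones. Of 31 measured antioxidant and heme enzymes and their regulators, 7 were higher, 2 were lower and 22 were neither, and the median was -0.01. Hmox1, which breaks down heme, had levels of 6.39 in DMSO, 5.16 with retinoic acid plus forskolin, 9.46 at 1.7 uM and 11.83 at 5 uM of KHS101. The 5 uM array stood well above the 1.7 uM array, the retinoic acid array was below DMSO, and Hmox1 was 43.5-fold higher. Srxn1, the sulfiredoxin that repairs oxidised peroxiredoxins, had levels of 5.05 in DMSO, the floor with retinoic acid plus forskolin, 8.32 at 1.7 uM and 10.32 at 5 uM of KHS101, and was 38.6-fold higher. Nqo1, a quinone reductase, was at least 25.4-fold higher and Akr1b8, an aldo-keto reductase, at least 13.6-fold higher. Nfe2l2, which encodes NRF2, was 5.24-fold higher, the efflux pump gene Abcc4 4.73-fold higher and Mafg, a DNA-binding partner of NRF2, 2.74-fold higher. Other textbook NRF2 targets did not pass 2-fold: Txnrd1 differed by 0.56, Me1 by 0.91, Tkt by 0.55, Taldo1 by -0.03, Prdx6 by -0.18 and Cbr1 by -0.03. Keap1 differed by 0.06, Sod1 by 0.07 and Cat by -0.03. Txnip, an inhibitor of thioredoxin that follows glucose, was at least 7.02-fold lower, at the floor on both KHS101 arrays against 7.81 in DMSO. The antioxidant response element, written TGACNNNGC, was in 66 of 423 promoters of higher genes (15.6%), 71 of 574 of lower genes (12.4%) and 778 of 6252 of the others (12.4%), with 10.2% in the whole table. Sequence more than 250 bases before a listed start was not searched, and the promoter of Hmox1 was not analysed here.

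Among 11 genes of metallothioneins and iron handling, Alas1, which starts heme synthesis, was 2.54-fold higher and the brain metallothionein Mt3 was 7.42-fold lower; Tfrc, Aco1 and Ireb2 differed by -0.25, -0.33 and -0.36.

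Protein folding genes were called in small numbers in each compartment. Of 26 cytosolic heat shock genes, 3 were higher and 0 lower (median 0.03). Hspa1a, the inducible HSP70, had levels of 5.67 in DMSO, 5.64 with retinoic acid plus forskolin, 6.02 at 1.7 uM and 8.69 at 5 uM of KHS101. Only the 5 uM array was high, and Hspa1a was 8.14-fold higher. Its co-chaperone Bag3 was 5.10-fold higher and Hspa4l 3.16-fold higher. Dnajb1, Hsph1 and Hsp90ab1, which also respond to heat shock factor, differed by -0.42, 0.05 and -0.17. None of 12 chaperonin and prefoldin subunits passed 2-fold. Of 19 mitochondrial chaperones, proteases and regulators, 3 were higher (median 0.34): the regulator Atf5, the protease Lonp1 (3.33-fold) and the chaperone Hspa9 (2.98-fold). The means over all probe sets of Lonp1 and Hspa9 were 0.87 and 0.78, under the threshold. The chaperonin genes Hspd1 and Hspe1 differed by 0.07 and 0.02.

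In the endoplasmic reticulum, 3 of 25 genes were higher and 0 lower (median 0.25). All 3 act in disposal of misfolded proteins: Herpud1 (3.71-fold), Edem1 (2.43-fold) and Sel1l (2.32-fold). The folding factors Hspa5, Hsp90b1, Calr and Pdia4 differed by 0.42, -0.09, -0.39 and -0.39. The disposal genes Derl1 and Derl2 did not pass 2-fold either, at 0.52 and -0.14. The co-chaperones Dnajb9 and Dnajc3 differed by 0.97 and 0.72. Of 30 autophagy and lysosome genes, 4 were higher: the protease Ctsl (3.03-fold), the cargo receptor Sqstm1 (2.68-fold), the lysosomal regulator Tfe3 (2.42-fold) and Uvrag (2.08-fold). The means over probe sets of Sqstm1 and Tfe3 were 0.62 and 0.43, under the threshold. None of 31 proteasome subunits passed 2-fold (median -0.09).

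Most genes that make and run ribosomes differed by less than 2-fold. Of 39 ribosome biogenesis genes, 1 was higher (Wdr75, 2.33-fold) and none were lower, with 35 differences above 0 and a median of 0.41. Myc, a driver of this group, differed by 0.08. Of 29 translation factors and ribosomal proteins, 2 were higher. Eif4ebp1, an ATF4 target that restrains cap-dependent translation, had levels of 10.44 in DMSO, 9.43 with retinoic acid plus forskolin, 12.45 at 1.7 uM and 12.70 at 5 uM of KHS101, and was 4.82-fold higher. Eif2b3, a subunit of the exchange factor that recharges eIF2, was 3.06-fold higher. The ribosomal protein genes Rpl3, Rps6 and Rplp0 differed by 0.11, 0.30 and 0.20.

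In a list of p53 targets and GADD45 growth arrest genes, the members were higher in part. Of 19 measured, 8 were higher and 1 was lower (median 0.68). Cdkn1a encodes p21, an inhibitor of cyclin-dependent kinases, and its levels were 7.33 in DMSO, 7.69 with retinoic acid plus forskolin, 10.33 at 1.7 uM and 10.87 at 5 uM of KHS101. Both KHS101 arrays were high, and Cdkn1a was 11.6-fold higher, with 3.20 from another probe set beside the 3.54. Gadd45b, Gadd45g and Gadd45a, growth arrest genes, were at least 30.5-fold, 5.52-fold and 4.47-fold higher. Bbc3, which encodes the death protein PUMA, was 4.92-fold higher. Gdf15, a secreted stress hormone, was at least 4.62-fold higher, at 7.21 with 5 uM and at the floor on the other 3 arrays. Sesn2, Gadd45a and Bbc3 are also known as genes of the integrated stress response. The p53 targets Mdm2, Ccng1, Phlda3 and Zmat3 differed by 0.68, 0.32, 0.55 and -0.26, and Sesn1 was 2.48-fold lower, although its other probe set gave -0.45. Aen, a nuclease, was 3.77-fold higher, with 0.66 from its other probe set. Of 20 cell death regulators, 1 was higher (Tnfrsf12a, a receptor for the cytokine TWEAK, 3.18-fold) and 2 were lower: Casp6, an executioner caspase, 5.84-fold, and Bik, a killer protein of the BCL2 family, 4.75-fold. Mcl1, Bcl2l1 and Bcl2l11 differed by 0.22, 0.61 and -0.03.

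The largest lower groups were those of the cell cycle. Among 8 measured inhibitors of cyclin-dependent kinases, Cdkn1a was higher, while Cdkn1c (5.83-fold), Cdkn2c (3.73-fold) and Cdkn3 (2.68-fold) were lower. The mean over the probe sets of Cdkn2c was -0.95, under the threshold. Cdkn1c, which encodes p57, had levels of 7.82 in DMSO, 9.91 with retinoic acid plus forskolin, 6.37 at 1.7 uM and 5.28 at 5 uM of KHS101: the retinoic acid array was above DMSO and the KHS101 arrays below it. Cdkn1b, which encodes p27, differed by 0.40. Of 10 genes of G1 cyclins and their kinases, 4 were lower and 1 was higher. Ccne1 and Ccne2, the E-type cyclins that start S phase, were 6.49-fold lower and 6.20-fold lower, with Ccne1 at 8.81 in DMSO, 7.87 with retinoic acid plus forskolin, 7.42 at 1.7 uM and 6.11 at 5 uM of KHS101. Cdk2, their kinase, was 2.79-fold lower. Ccnd2, a D-type cyclin, went the other way: its levels were 10.73 in DMSO, 12.51 with retinoic acid plus forskolin, 13.11 at 1.7 uM and 12.92 at 5 uM of KHS101, so that all 3 treated arrays were above DMSO and 5 uM was 4.56-fold higher. Ccnd1 and Cdk4 differed by -0.09 and -0.17.

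Of 17 measured E2F and retinoblastoma family genes, 8 were lower and none higher (median -0.73). E2f1, an activator of replication genes, had levels of 8.56 in DMSO, 7.67 with retinoic acid plus forskolin, 6.97 at 1.7 uM and 5.32 at 5 uM of KHS101. The order of the arrays ran from DMSO through retinoic acid and 1.7 uM down to 5 uM, and E2f1 was 9.45-fold lower. E2f2, another activator, was 8.25-fold lower, and the late repressors E2f7 and E2f8 were 9.58-fold lower and at least 8.50-fold lower. Mybl2, a transcription factor of the MYB family, was 8.90-fold lower. Rbl1, which encodes p107, was 3.34-fold lower. The constitutive members E2f4, Rb1 and Rbl2 differed by 0.14, -0.11 and -0.14.

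Replication genes were lower from licensing to fork. Of 21 genes of origin licensing and the replicative helicase, 16 were lower and none higher, and the median of -2.16 was the lowest of the lists with 8 or more measured members. Mcm3, a subunit of the helicase ring, had levels of 10.38 in DMSO, 9.22 with retinoic acid plus forskolin, 8.47 at 1.7 uM and 6.67 at 5 uM of KHS101. It was 13.1-fold lower, and every treated array was below DMSO. Mcm5 and Mcm6, from the same ring, stood at 8.05 against 11.32 in DMSO and at 10.47 against 13.04, that is 9.65-fold and 5.91-fold lower. Mcm2, Mcm4 and Mcm7 completed the ring at 4.68-fold, 3.80-fold and 3.18-fold lower. Cdt1, which loads the ring, was 6.36-fold lower and Gmnn, which inhibits Cdt1, 5.25-fold lower. Orc1, the cell-cycle regulated subunit of the origin complex, was 6.89-fold lower and Orc6 2.99-fold lower, whereas Orc2, Orc3, Orc4 and Orc5 differed by 0.75, 0.48, 0.27 and -0.22.

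Of 11 genes of deoxynucleotide synthesis, 5 were lower. Tk1, the S-phase thymidine kinase, had levels of 11.96 in DMSO, 11.13 with retinoic acid plus forskolin, 10.47 at 1.7 uM and 8.73 at 5 uM of KHS101, and was 9.34-fold lower. Tyms, which makes thymidylate, was 5.21-fold lower, Dut 4.36-fold lower and Rrm1, a subunit of ribonucleotide reductase, 3.73-fold lower; the mitochondrial kinase Tk2 differed by 0.23. At the fork, 28 of 32 genes were lower (median -1.59). Dscc1 and Chtf18, of the clamp loader that acts in cohesion, were 7.89-fold lower and 6.21-fold lower, the chromatin assembly subunit Chaf1a 7.59-fold lower and the checkpoint mediator Clspn at least 5.74-fold lower. Pole and Pola2, polymerase subunits, were 5.16-fold lower and 5.67-fold lower. Pcna, the clamp itself, was 2.1-fold lower. The primase genes Prim1 and Prim2 differed by -0.72 and -0.91. In homologous recombination and mismatch repair, 14 of 17 were lower (median -2.07): Bard1, the partner of BRCA1, was 8.72-fold lower, Brca1 4.51-fold lower, Exo1 6.08-fold lower, Rad51c 5.77-fold lower and Fancd2 5.55-fold lower.

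The E2F element, taken as TTTCCCGC or TTTGGCGC on either strand, was in 38 of 574 promoters of lower genes (6.62%), in 3 of 423 of higher genes (0.709%) and in 163 of 6252 of the others (2.61%), against 1.26% in the whole table. With the 50 bases after the start included it was in 56 promoters of lower genes (9.76%). In the licensing list 8 of 17 promoters held it. The promoter of Mcm5 is shown whole because it held 2 matches that do not overlap, which begin 209 and 8 bases before the start; it covers chr19:13488563-13488812 on the plus strand. Shorter stretches follow with the match in capitals and 12 bases on either side, for a helicase subunit (Mcm6, chr13:42404472-42404503, minus strand), 2 subunits of the GINS complex of the helicase (Gins1, chr3:160184883-160184914, plus; Gins3, chr19:9434696-9434727, plus), the thymidylate enzyme (Tyms, chr9:120776101-120776132, minus) and a repair gene (Bard1, chr9:80143941-80143972, minus).
Mcm5: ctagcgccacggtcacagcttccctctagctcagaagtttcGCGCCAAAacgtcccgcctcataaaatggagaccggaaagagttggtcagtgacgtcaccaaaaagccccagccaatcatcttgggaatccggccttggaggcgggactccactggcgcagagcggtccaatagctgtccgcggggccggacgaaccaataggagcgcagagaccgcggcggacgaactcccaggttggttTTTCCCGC
Mcm6: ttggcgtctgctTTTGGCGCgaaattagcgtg
Gins1: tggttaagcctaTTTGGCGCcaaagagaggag
Gins3: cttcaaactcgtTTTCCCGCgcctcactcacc
Tyms: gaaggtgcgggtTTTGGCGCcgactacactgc
Bard1: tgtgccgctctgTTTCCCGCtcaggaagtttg
The Mcm5 match farther from the start reads as TTTGGCGC on the other strand. The match of Gins1 overlaps with a match on the other strand that is not capitalised. Gins1 was 5.61-fold lower and Gins3 5.25-fold lower.

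Mitotic genes were lower nearly throughout. Of 63 genes of kinetochore, spindle and cytokinesis, 56 were lower and none higher (median -1.51). Mki67, the proliferation marker Ki-67, had levels of 11.72 in DMSO, 11.42 with retinoic acid plus forskolin, 10.49 at 1.7 uM and 10.46 at 5 uM of KHS101. The KHS101 arrays lay close together, and at 5 uM Mki67 was 2.39-fold lower. Cenpu, a centromere protein, was 9.45-fold lower, Melk, a mitotic kinase, 6.02-fold lower and Foxm1, which drives mitotic genes, 5.62-fold lower. Cdk1, the mitotic kinase, was 2.68-fold lower, Ccnb1 2.39-fold lower, Plk1 3.50-fold lower and Aurkb 4.24-fold lower. Bub3, Cdc25b and Ckap5 differed by -0.35, -0.15 and -0.14. Of 18 condensin and cohesin genes, 7 were lower: the condensin genes Ncapd3 (3.63-fold), Ncaph (3.36-fold), Ncaph2, Ncapg2, Ncapd2 and Smc2, and Esco2 (7.15-fold), which acetylates cohesin in S phase. The cohesin subunits Smc1a, Smc3, Rad21 and Stag2 differed by -0.91, -0.20, -0.65 and -0.23, and the condensin subunit Smc4 by -0.85.

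Tacc3, the reported binding partner of KHS101, had levels of 11.28 in DMSO, 10.45 with retinoic acid plus forskolin, 10.03 at 1.7 uM and 9.83 at 5 uM of KHS101. All 3 treated arrays were below DMSO, the KHS101 arrays lay close together, and Tacc3 was 2.74-fold lower at 5 uM. A mean over its probe sets gave -0.73, under the threshold. Its relatives Tacc2 and Tacc1 were 2.38-fold lower and differed by 0.30. Its spindle partners Ckap5 and Cltc differed by -0.14 and 0.50, and the transcription factors Arnt, Arnt2 and Hif1a by -0.14, 0.46 and -0.03. Epas1, a hypoxia-inducible factor, was 3.13-fold lower, with -0.82 as the mean over its probe sets.

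Progenitor genes did not move as 1 group. Of 13 measured genes of progenitors and radial glia, 2 were higher and 3 lower (median -0.44). Sox2, which keeps the progenitor state, had levels of 14.01 in DMSO, 13.81 with retinoic acid plus forskolin, 13.82 at 1.7 uM and 13.57 at 5 uM of KHS101, and differed by -0.44. Nes and Vim, intermediate filament genes, differed by 0.52 and -0.40. Fabp7, a lipid-binding protein of radial glia, had levels of 14.59 in DMSO, 15.09 with retinoic acid plus forskolin, 13.39 at 1.7 uM and 12.48 at 5 uM of KHS101. The retinoic acid array was the highest and the 5 uM array the lowest, and Fabp7 was 4.33-fold lower. Sox3 was 4.94-fold lower. Tnc, a matrix protein of stem cell niches, was at least 4.03-fold higher. The log2 summed signal of the progenitor markers was 15.28 with KHS101 and 16.05 in DMSO. In the Notch pathway, 1 of 11 genes was higher and 1 lower. Hes1, the target that represses neuronal genes, had levels of 9.02 in DMSO, 9.33 with retinoic acid plus forskolin, 10.55 at 1.7 uM and 10.36 at 5 uM of KHS101 and was 2.54-fold higher, while the receptor Notch1 was 2.74-fold lower. The other effector Hey1 differed by -0.54, the ligands Dll1 and Jag1 by -0.61 and 0.24.

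Neuronal genes were mixed. Of 14 measured genes of neuronal commitment, 1 was higher (Elavl2, an RNA-binding protein of neurons, 2.36-fold) and 1 lower (Stmn4, 2.24-fold). Tubb3, the neuronal tubulin, had levels of 8.85 in DMSO, 9.98 with retinoic acid plus forskolin, 9.59 at 1.7 uM and 9.48 at 5 uM of KHS101, which put DMSO lowest, with a difference of 0.63 at 5 uM. Sox4 and Sox11, factors of young neurons, differed by 0.37 and 0.34, and Ncam1 and Stmn1 by -0.01 and -0.63. Of 23 genes of neuronal cytoskeleton and growth cone, 5 were higher and none lower (median 0.24). When only genes above the floor on both arrays are counted, 3 were higher. Dclk1, a microtubule kinase of migrating neurons, had levels of 8.17 in DMSO, 11.65 with retinoic acid plus forskolin, 10.46 at 1.7 uM and 10.37 at 5 uM of KHS101: all treated arrays were above DMSO, and 5 uM was 4.61-fold higher. Its mean over probe sets was 0.55, under the threshold. Unc5b, a netrin receptor, was 3.85-fold higher, Mapt, which encodes tau, 2.1-fold higher, and the guidance gene Sema3c at least 6.06-fold higher. Map2 and Gap43 differed by 0.14 and -0.68. The log2 summed signal of the neuronal markers was 12.80 with KHS101 and 12.64 in DMSO.

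Of 21 genes of synapse, transmitter and excitability, 6 were lower and 3 higher (median -0.27). Gad1, which makes the transmitter GABA, had levels of the floor in DMSO, the floor with retinoic acid plus forskolin, 7.04 at 1.7 uM and 7.95 at 5 uM of KHS101, and was at least 7.75-fold higher. Eno2, the neuronal enolase, was 3.48-fold higher and the kinase Camk2b 2.25-fold higher. Lower were C1ql1, a secreted synapse organiser (at least 9.87-fold), Kcnmb4, a potassium channel subunit (9.86-fold), the adhesion gene Lrrc4 (at least 8.51-fold) and the neuroligin Nlgn3 (2.97-fold), for which another probe set gave -0.96. Syp, Gria2 and Homer1 differed by -0.10, 0.06 and 0.21.

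Genes of the oligodendrocyte lineage were lower in large part. Of 17 measured, 11 were lower and none higher, and the median was -1.18. Mbp, a main protein of myelin, had levels of 12.07 in DMSO, 13.36 with retinoic acid plus forskolin, 10.54 at 1.7 uM and 9.96 at 5 uM of KHS101. The retinoic acid array was above DMSO and both KHS101 arrays were below it, and Mbp was 4.32-fold lower, with -2.20 from another probe set. Olig2, which specifies the lineage, had levels of 11.08 in DMSO, 11.12 with retinoic acid plus forskolin, 10.25 at 1.7 uM and 9.50 at 5 uM of KHS101 and was 2.99-fold lower, with a mean of -0.79 over its probe sets. Olig1 was 2.36-fold lower and Nkx2-2, a partner in the same lineage, 3.13-fold lower. Apod, a lipid carrier of myelinating glia, was 9.17-fold lower, Gal3st1, which makes sulfatide, 4.72-fold lower and Myrf, the myelin regulator, 2.26-fold lower. Pdgfra, the receptor of oligodendrocyte precursors, was 2.1-fold lower, and Sox10 differed by -0.78. The log2 summed signal of the fixed oligodendrocyte markers was 14.03 with KHS101 and 15.23 in DMSO.

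Among 9 measured astrocyte genes, Cd44 was higher, and Aldoc (2.77-fold) and Ndrg2 (2.85-fold) were lower (median -0.66); S100b differed by 0.17 and Glul by -0.48. The mean over probe sets of Ndrg2 was -0.76, under the threshold. The astrocyte markers had a log2 summed signal of 13.33 with KHS101 and 13.15 in DMSO, and S100b was the only one above the floor. P2ry12, a receptor best known from microglia, was at least 6.32-fold lower, at 7.66 in DMSO, 8.50 with retinoic acid plus forskolin, the floor at 1.7 uM and the floor at 5 uM of KHS101, while Cx3cr1, Csf1r and Aif1 were at the floor on both arrays. Of 5 measured fibroblast and meningeal genes, Postn (at least 3.48-fold) and Igfbp4 (2.28-fold) were higher, while Col1a1, Col1a2 and Col3a1 were at the floor. What part changes in cell makeup had in the gene differences was not tested.

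Early response factors and signalling genes gave single large differences. Of 20 immediate early factors, 8 were higher and 1 was lower (median 0.33). With only genes above the floor on both arrays, 5 were higher. Klf4, a zinc finger factor that holds back division in many tissues, had levels of the floor in DMSO, the floor with retinoic acid plus forskolin, 8.58 at 1.7 uM and 10.15 at 5 uM of KHS101. Both arrays without KHS101 were at the floor, and Klf4 was at least 35.4-fold higher. Egr2 was at least 8.68-fold higher, and its level was higher still with retinoic acid and forskolin, 8.97 beside 8.12. Fos was 2.89-fold higher and Egr1 2.57-fold higher, but the mean over the probe sets of Fos was 0.77. Jun, Jund and Nr4a1 differed by 0.23, -0.15 and -0.50. Among 14 genes of FGF and ERK feedback, Epha4, an ephrin receptor, was 8.89-fold higher and Etv1, a factor downstream of FGF, 2.62-fold lower; Dusp6, Spry2 and Spry4 differed by -0.33, 0.57 and -0.10.

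In BMP and TGF-beta signalling, 4 of 21 genes were higher and 2 lower. Bmp4, a ligand that steers progenitors to astrocytes, had levels of 7.53 in DMSO, 8.15 with retinoic acid plus forskolin, 5.01 at 1.7 uM and the floor at 5 uM of KHS101. Both KHS101 arrays were at or next to the floor, and Bmp4 was at least 5.76-fold lower. The ligand Bmp2 was 2.17-fold higher with 0.56 as the mean over its probe sets, the decoy receptor Bambi 2.55-fold higher and the repressor Tgif1 2.86-fold higher. The target genes Id1, Id2, Id3 and Id4 differed by 0.94, 0.23, -0.42 and -0.44. Of 16 Wnt and Hedgehog genes, 2 were higher and 4 lower: Nkd2, an antagonist, was 4.14-fold higher and the receptor gene Fzd8 2.18-fold higher, while the receptor genes Fzd1 and Lgr5 were 4.08-fold lower and 4.61-fold lower. Lgr5 was close to or at the floor on all treated arrays. Axin2, a common readout of Wnt signalling, differed by 0.21.

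Retinoid genes were looked at because the positive control contains retinoic acid. Of 10 measured, 2 were higher and 1 was lower. Dhrs3, which turns retinaldehyde back to retinol and is itself induced by retinoic acid, had levels of 5.74 in DMSO, 13.03 with retinoic acid plus forskolin, 10.68 at 1.7 uM and 10.85 at 5 uM of KHS101. All 3 treated arrays were far above DMSO, retinoic acid the farthest, and at 5 uM Dhrs3 was 34.5-fold higher. Rarb, a retinoic acid receptor that responds to its ligand, had levels of 8.87 in DMSO, 11.70 with retinoic acid plus forskolin, 10.84 at 1.7 uM and 10.73 at 5 uM of KHS101, again with retinoic acid highest and DMSO lowest, and was 3.65-fold higher. Cyp26b1, an enzyme that degrades retinoic acid, had levels of 11.29 in DMSO, 11.03 with retinoic acid plus forskolin, 9.42 at 1.7 uM and 8.17 at 5 uM of KHS101 and was 8.68-fold lower, although its other probe set gave -0.85. The receptors Rara, Rarg and Rxrb differed by -0.41, 0.18 and -0.04.

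Of 15 secreted stress hormones and growth factors and their receptors, 7 were higher and none lower (median 0.67). Vegfa, the main growth factor of blood vessels, had levels of 7.40 in DMSO, 6.62 with retinoic acid plus forskolin, 10.13 at 1.7 uM and 11.02 at 5 uM of KHS101. The KHS101 arrays were high and the retinoic acid array was below DMSO, and Vegfa was 12.4-fold higher, with 3.52 from another probe set beside the 3.63. Sorcs2, a receptor of the sortilin family, was 13.3-fold higher and the neurotrophin receptor gene Ntrk3 4.00-fold higher; Ntrk2 differed by 0.08. Among chemokine genes, Ccl2 was 5.88-fold higher, at 8.41 in DMSO, 13.88 with retinoic acid plus forskolin, 11.09 at 1.7 uM and 10.97 at 5 uM of KHS101, so that the retinoic acid array was the highest. Cx3cl1 was 2.65-fold higher, while Cxcl12 and its scavenger receptor gene Ackr3 were at least 2.67-fold lower and at least 10.7-fold lower. Of 16 interferon-inducible genes, 4 were higher and 2 lower (median -0.02). Ifi27l2b, of a family of small mitochondrial proteins, had levels of 6.77 in DMSO, 6.97 with retinoic acid plus forskolin, 12.30 at 1.7 uM and 12.96 at 5 uM of KHS101, and was 72.8-fold higher. The transcription factor gene Irf3 was 3.95-fold higher. Mx2 and the immunoproteasome gene Psmb9 were at least 7.33-fold lower and 3.83-fold lower, and Irf1, Stat2 and Tap1 differed by -0.46, 0.39 and 0.01.

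Matrix and adhesion genes held large differences on both sides. Of 24 genes of collagens, laminins and matrix, 7 were higher and 2 lower (median 0.17). With the mean over all probe sets of a gene, 4 were higher. Timp3, an inhibitor of matrix proteases, had levels of 9.06 in DMSO, 11.33 with retinoic acid plus forskolin, 11.61 at 1.7 uM and 11.80 at 5 uM of KHS101: DMSO was the lowest, and 5 uM was 6.69-fold higher. Nid2, a basement membrane linker, and Col9a1, a collagen, were at least 11.1-fold lower and 9.0-fold lower. At 5 uM Col9a1 stood at 5.02, next to the floor. Cd44, the receptor for hyaluronan, had levels of 6.14 in DMSO, 5.10 with retinoic acid plus forskolin, 9.40 at 1.7 uM and 10.20 at 5 uM of KHS101. The KHS101 arrays were high and the retinoic acid array was below DMSO, and Cd44 was 16.6-fold higher, with 4.78 from another probe set beside the 4.05. Of 21 measured adhesion genes, Cd44 among them, 2 were higher and 3 lower: Cd93 was at least 13.3-fold higher, and Cadm1 and Itgav were 3.76-fold lower and 2.14-fold lower. Itga8 was 6.07-fold lower, with -0.87 from its other probe set. Itgb1 and Cdh2 differed by 0.04 and -0.35. Of 21 genes of actin and its factor SRF, Vcl and Flna were 2.11-fold and 2.04-fold higher and Myl9 was 2.88-fold lower; Actg1 and Srf differed by 0.20 and 0.00.

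Of 18 genes driven by hypoxia or ARNT, 7 were higher and 1 was lower (median 0.59). Pfkfb3, which makes the activator of glycolysis, had levels of 7.73 in DMSO, 9.24 with retinoic acid plus forskolin, 10.67 at 1.7 uM and 11.70 at 5 uM of KHS101. DMSO was the lowest, retinoic acid lay between, and at 5 uM Pfkfb3 was 15.7-fold higher. Bhlhe41 and Bhlhe40, clock and hypoxia repressors, were 5.65-fold higher and at least 3.08-fold higher, Gys1, glycogen synthase, 3.92-fold higher and Adm, a vasoactive peptide, at least 2.70-fold higher. Mxi1, an antagonist of MYC, was 2.21-fold lower. The hypoxia targets Egln1, Kdm3a, Ndrg1, P4ha1, Ankrd37 and Bnip3 differed by -0.53, 0.08, 0.17, 0.33, 0.66 and 0.90. Vegfa and Ddit4 are also known to respond to ATF4.

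In glycolysis and pyruvate use, 4 of 23 genes were higher and 2 lower (median 0.19). Pck2, the mitochondrial enzyme that makes phosphoenolpyruvate and a known ATF4 target, had levels of 7.37 in DMSO, 6.15 with retinoic acid plus forskolin, 10.27 at 1.7 uM and 10.33 at 5 uM of KHS101, and was 7.78-fold higher. Slc16a1, a lactate transporter, was 2.38-fold higher, with 0.62 as the mean over its probe sets, and Pfkp 2.13-fold higher. Pdk2, which holds back pyruvate oxidation, was at least 3.89-fold lower. The core enzymes Ldha, Pgk1, Tpi1, Pgam1 and Eno1 differed by 0.03, -0.03, -0.13, 0.19 and 0.22. Of 55 genes of the respiratory chain and the TCA cycle, none was higher and 1 was lower (Ndufa2, 2.24-fold), with a median of -0.04. Of 20 cholesterol synthesis genes, 2 were lower (Tm7sf2, 2.59-fold, and Stard4, 2.01-fold), and Sqle, Idi1 and Fdft1 differed by -0.02, -0.06 and -0.20. Of 19 genes of fatty acid synthesis and oxidation, Hadhb was 3.05-fold higher and Cpt1a 2.29-fold lower, with -0.90 from another probe set of Cpt1a. None of 10 reference genes passed 2-fold; Hprt1, Tbp and Ywhaz differed by -0.06, -0.09 and -0.07.

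**Figure D5:**
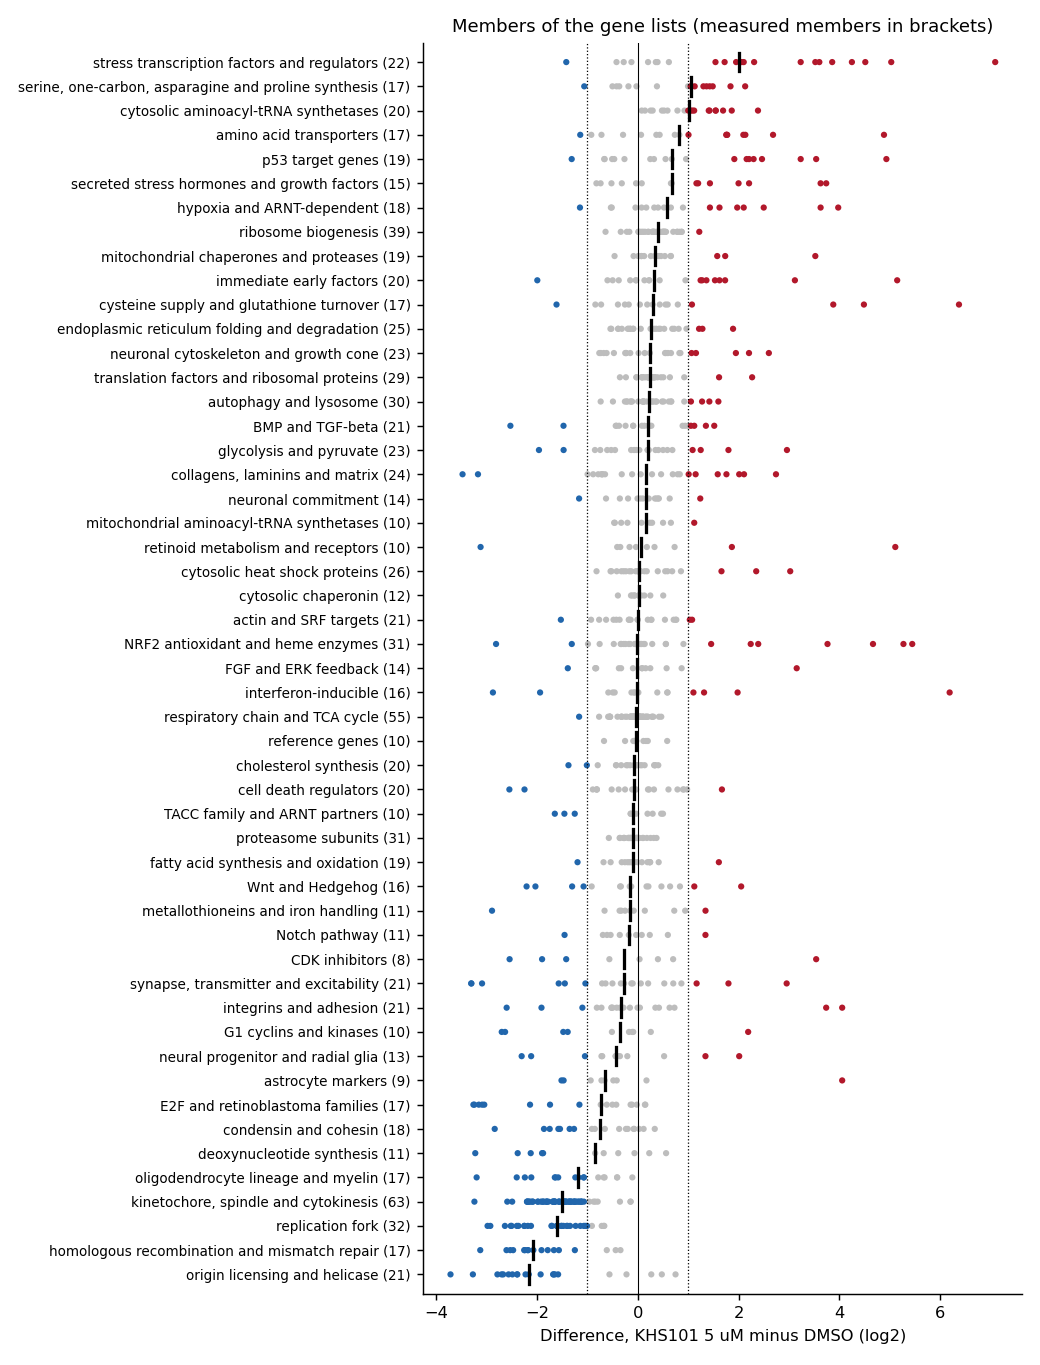
Each row is a gene list with 8 or more measured members (number in brackets), each point a member at its log2 difference between KHS101 at 5 uM and DMSO, in red if at least 2-fold higher, blue if at least 2-fold lower and grey otherwise, and the black bar is the median. The stress regulators at the top have a median of 2.01 and the licensing genes at the bottom a median of -2.16, while the reference genes lie around -0.04.

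The lists held 1014 of the measured genes, with 138 of the 526 higher and 203 of the 692 lower genes. Outside them, the largest differences between levels that were both above the floor were Fam13c (15.8-fold), Renbp, an enzyme of sialic acid metabolism (13.3-fold), Tdrp (11.5-fold) and the GTP-binding gene Gtpbp2 (9.60-fold) on the higher side. Among bounds on that side were Dmkn, a secreted epithelial protein (at least 20.2-fold), Nnmt, which methylates nicotinamide (at least 15.7-fold), and the sialyltransferase gene St3gal1 (at least 15.3-fold). On the lower side Armh4 had levels of 10.55 in DMSO, 10.92 with retinoic acid plus forskolin, 7.81 at 1.7 uM and 6.44 at 5 uM of KHS101, with both KHS101 arrays below the others, and was 17.3-fold lower. Mlf1 was 10.1-fold lower, Crim1, which binds BMP ligands, 8.86-fold lower, Sez6, a neuronal membrane protein, 8.78-fold lower, Xkr5 8.66-fold lower and the histone chaperone gene Asf1b 8.27-fold lower. At 5 uM Crim1 stood at 5.05, next to the floor. Sytl2, a vesicle protein, and Cep128, a centriole protein, were at least 10.6-fold lower and at least 7.63-fold lower, being at the floor with KHS101.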

How the data were processed

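RNA from rat hippocampal neural progenitor cells was hybridised to Affymetrix rat expression arrays, 1 for each of 4 groups. The values deposited by the authors are log2 levels of 31099 probe sets. The submitters' processing notes name GCRMA and R 2.6.2, without a genome build or the step that each tool served. That the scale is log2 was read from the range of the values. The columns had nearly the same distribution, with medians of 3.67 to 3.76, so a shift common to all genes would not show. Per the platform annotation, 20826 probe sets had 1 gene symbol, 436 had several and 9780 had none, and 57 were array controls; only those with 1 symbol entered gene counts.

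Values below log2 = 5, where GCRMA values carry little specific signal, were raised to 5, and a difference of 1 in log2 (2-fold) was called. Depth is not defined for arrays. On each array 8389 to 8471 named genes lay above the floor. With 1 array per group no test, SD or interval was possible, and lists are described by counts and medians beside those of all measured genes. The comparisons of the series share the DMSO array, so levels on the other arrays are given side by side only. The calling script was tested on simulated data with changes well past the threshold in genes well above the floor. That test checks the code alone and does not show how reliable the calls in these data are. Promoters are those of RefSeq for GRCr8 (250 bases before the start listed at the top for a gene; 424 measured genes had more than 1 start), matched by gene identifier.

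The members, the 56 gene lists and the motifs were chosen with earlier results of these data known. Genes were named by a rule: the 20 largest differences each way between levels above the floor, the 10 largest bounds each way, up to 8 called members of each list each way, genes always given and, for lists of 30 measured members or fewer, uncalled members that are well known; most are named and others left out for length. Outside the rule, chosen after their values were seen, are Cebpg, Jdp2, Nfe2l1, Atf6, Txnrd1, Me1, Tkt, Taldo1, Prdx6, Cbr1, Keap1, Sod1, Cat, Mcm2, Mcm4, Mcm7, Orc6, Pcna, Prim1, Prim2, Gins3, Cdk1, Ccnb1, Plk1, Aurkb, Bub3, Cdc25b, Myrf and Pdgfra, which are textbook members of their groups, and the genes of the closing section. Alternatives were other floors, other choices of probe set, quantile normalization, other thresholds and other promoter windows. Python 3.11.15, pandas 2.3.3, numpy 2.4.6 and matplotlib 3.10.9 were used.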

Additional observations from a re-analysis of the deposited data

Results flagged for a closer look

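Probe sets outside the named genes also carried signal. Of 9780 unnamed probe sets, 2504 were measured, of which 183 (7.31%) were at least 2-fold higher with KHS101 at 5 uM than in DMSO and 219 (8.75%) at least 2-fold lower. These shares lie beside 6.16% and 8.10% of named genes, and the largest log2 differences were 5.22 and -4.26. Of 436 probe sets that the annotation gives to several genes, 284 were measured, of which 8 (2.82%) were higher and 17 (5.99%) lower, with the largest log2 differences at 3.74 and -2.95. Which transcripts the unnamed probe sets measure was not analysed here.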

How the results depend on the processing

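No paired analysis was possible because each group has 1 array. The counts of 526 higher and 692 lower genes depend on the fold: 218 and 300 passed 3-fold, and 1248 and 1373 passed 1.5-fold. Under the other 7 alternatives (floors of log2 = 4 and 6, no floor, the mean of all probe sets, the probe set with the smallest difference, quantile normalization, and only genes above the floor on both arrays) there were 431 to 560 higher and 610 to 731 lower genes, and the higher share of calls stayed between 41.1% and 44.8% (43.2% as reported). Quantile normalization moved the median difference to 0.02. Of 140 list counts recomputed, 137 were within 1.5 times the reported count; the other 3 were higher members of the matrix list with the mean of all probe sets (4 beside 7), and of the neuronal cytoskeleton list (3 beside 5) and the immediate early list (5 beside 8) with only genes above the floor on both arrays. Of 5058 single gene values recomputed, 4921 kept their call, 137 did not and 0 changed from higher to lower or back. The mean of all probe sets accounted for 67 of these and the floor of 6 for 36. The ATF4 element was in 21 to 23 promoters of higher genes, the E2F element in 38 to 56 of lower genes and the antioxidant response element in 66 to 74 of higher genes over the promoter windows tried, of which the window before any listed start was chosen after seeing the data. Signal over background limits genes near the floor, where bounds and small differences cannot be ordered, and 1 array per group limits every value.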

Other observations

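The genes and families in this paragraph and the next were picked after their values were seen. Among 134 measured solute carrier genes outside or inside the lists, 24 were higher and 5 lower with KHS101 at 5 uM (median difference 0.26), beside 6.16% and 8.10% of all genes. Besides the amino acid transporters of the report, Slc25a33, a mitochondrial carrier of pyrimidine nucleotides, had levels of 8.29 in DMSO, 7.76 with retinoic acid plus forskolin, 9.84 at 1.7 uM and 10.87 at 5 uM of KHS101 and was 5.98-fold higher. Slc6a15, a neutral amino acid transporter of neurons, was 4.81-fold higher, with its lowest level, 7.65, on the retinoic acid array. Xpot, which exports tRNA from the nucleus, was 3.53-fold higher. Rragd and Flcn, which tell the growth kinase mTORC1 about amino acids and are known targets of lysosomal factors such as Tfe3, were at least 6.84-fold higher and 3.24-fold higher. Creb3l1, a membrane-bound relative of Atf6, was at least 5.11-fold higher. In the DEAD box helicase family none of 31 passed 2-fold (median 0.25).

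Single higher genes outside the lists were these: Edil3, an integrin ligand, had levels of 10.98 in DMSO, 11.50 with retinoic acid plus forskolin, 13.48 at 1.7 uM and 13.86 at 5 uM of KHS101 and was 7.40-fold higher, Mmp11, a matrix protease, 8.25-fold higher, the collagen receptor gene Ddr2 6.56-fold higher and the growth factor gene Kitlg 5.47-fold higher. Tsc22d3 and Klf15, which are known to respond to glucocorticoids, were 3.40-fold higher and 7.90-fold higher (0.99 for Klf15 as the mean of its probe sets), the clock gene Bmal1 3.46-fold higher and the synaptic vesicle gene Sv2b 4.81-fold higher (0.76 as the mean of its probe sets). Lower genes included further genes known from oligodendrocytes or their precursors: Enpp2, which makes lysophosphatidic acid, was 3.21-fold lower, Zfp488, a partner of Olig2, 3.67-fold lower, Gatm, of creatine synthesis, 4.89-fold lower and the proteoglycan gene Cspg5 3.74-fold lower. Of 16 centromere proteins 12 were lower and of 23 kinesins 11, with none higher in either family. Pclaf, which binds the replication clamp, had levels of 13.55 in DMSO, 12.86 with retinoic acid plus forskolin, 12.13 at 1.7 uM and 10.80 at 5 uM of KHS101 and was 6.76-fold lower, Ung, which removes uracil from DNA, 6.57-fold lower, Hjurp, the chaperone of the centromeric histone, 4.76-fold lower and the histone gene H2ax 3.15-fold lower. The lipase gene Lpl was 3.28-fold lower, the imprinted gene Nnat 4.70-fold lower, the kinase gene Lyn at least 4.64-fold lower and the Wnt antagonist gene Wif1 3.31-fold lower. The call of Lyn ended with the mean of its probe sets (-1.11), whose levels were not above the floor.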
